A study of Mus musculus with 12 samples.

Results

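The comparison described here sets 3 libraries of mouse CD8 T cells cultured with IL-2, IL-15, transforming growth factor beta (TGFβ) and all-trans retinoic acid (RA), called TGFβ + RA, against 3 libraries of the same kind of cell cultured with IL-2 and IL-15 alone, called IL-2 + IL-15. The 6 libraries were taken by their titles from the 12 of the series, and all genes were kept. The cells came from the spleen of C57BL/6 mice, and the labels name no transgene and no gene deletion. RNA was isolated on day 7 of culture. Both groups received IL-2 and IL-15, cytokines that keep activated CD8 T cells alive, so the comparison shows what was different when both further agents were present together. The other 6 libraries received RA alone or TGFβ alone. They were part of the filter, the scaling and the fit, so they bear on every p-value of that fit. Their levels are given below to show where the cultures with both agents stood apart. By its title, the series set out to generate resident memory (Trm) CD8 cells in vitro. These are cells grown outside the body, and the sources used here give neither the doses nor the way the cells were activated. Each sample is labelled a biological replicate but is tied to no animal. The p-values therefore set group differences against the variation among these cultures, which may or may not include variation between animals.

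Tissue-resident memory T cells stay in epithelia such as gut and skin and do not return to the blood. TGFβ binds a receptor kinase pair that activates SMAD transcription factors. In T cells it is known for inducing the integrin chain CD103 and for restraining effector functions. RA, the active form of vitamin A, binds nuclear receptors on DNA and is known for giving T cells gut-homing receptors. Exit of T cells from tissues follows a lipid gradient sensed by the receptor S1PR1, whose gene is driven by the transcription factor KLF2, and the surface protein CD69 removes S1PR1 from the membrane.

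Libraries held 18300206 to 33477037 counts. Levels are given as CPM, a gene's counts relative to the scaled total of its library, for replicates 1, 2 and 3 in that order, and an error of a mean is the SD of 3 libraries. The first principal component of all 12 libraries held 49.4% of their variance. On it the TGFβ + RA libraries lay at 66.9 to 70.7 and the IL-2 + IL-15 libraries at -55.4 to -45.6. Libraries of RA alone lay at -42.35 to -27.78 and those of TGFβ alone at 16.63 to 18.53. In the quasi-likelihood test of edgeR, with p-values adjusted by the Benjamini-Hochberg method here and throughout, 8854 of 14009 tested genes (63.2%) differed at an adjusted p under 0.05. Of all tested genes, 4314 (30.8%) were higher in TGFβ + RA and 4540 (32.4%) were lower. At least 2-fold changes were less balanced, with 889 genes (6.35%) higher and 1692 (12.1%) lower, 18.4% in all. The 3 libraries of one group did not overlap with the 3 of the other in 69.9% of tested genes, so the lack of overlap described for single genes below is common. Against RA alone 60.2% of tested genes differed, and against TGFβ alone 43.0%. The median log2 fold change of all tested genes was 0.0016. Since most genes passed, a gene's call alone says little, and the counts of each gene list below are to be read against 30.8% higher and 32.4% lower. Genes named only to spell out a small count or an exception in a list were picked after their values were seen.

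**Figure D1:**
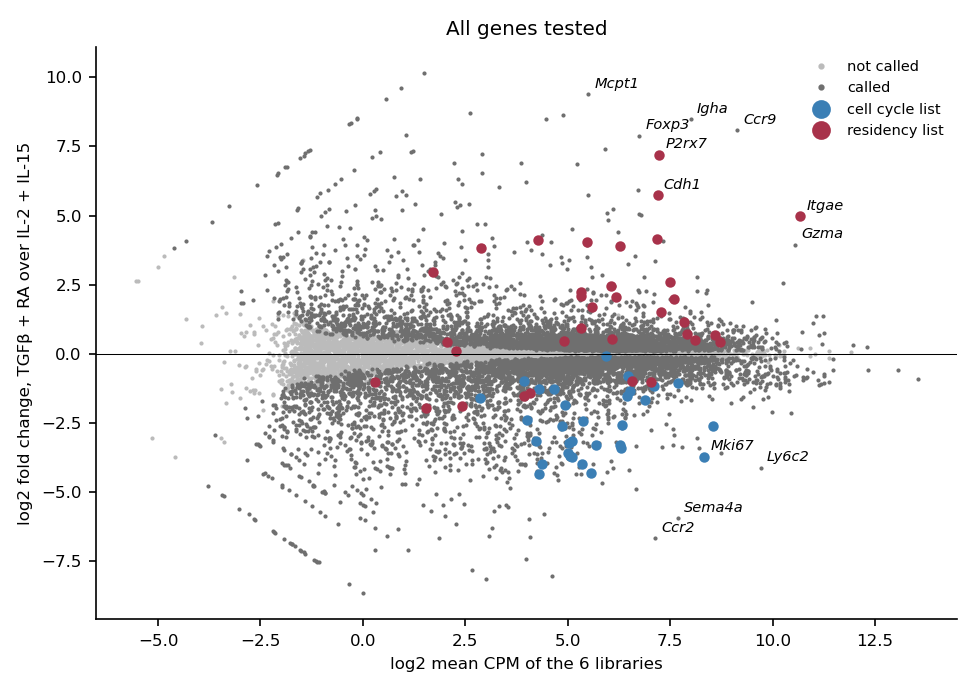
Each point is a gene, with the log2 of its mean CPM in the 6 libraries on the x axis and the log2 fold change of TGFβ + RA over IL-2 + IL-15 on the y axis; dark points are the 8854 called genes. Points of the cell cycle list (blue) lie below 0 and most of the residency list (red) lies above it.

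Markers of the labelled cell type were present in all 6 libraries. The summed level of 8 CD8 T cell markers was 6054 to 6681 CPM in IL-2 + IL-15 and 9465 to 9805 CPM in TGFβ + RA (exact two-sided permutation test, p = 0.1, the smallest that 3 against 3 libraries allow). The summed CD4 T cell markers were 615.0 to 682 and 624 to 779 CPM (exact permutation p = 0.3). That sum hides opposite changes. Foxp3 was at 1.31, 0.814 and 0.614 CPM in IL-2 + IL-15 and 236, 239.7 and 167 CPM in TGFβ + RA. Cd4 fell and was at 1.01, 1.55 and 1.47 CPM in IL-2 + IL-15 and 0.37, 0.282 and 0.736 CPM in TGFβ + RA, and Il2ra, most of the sum, also fell and was at 606, 547 and 554 CPM in IL-2 + IL-15 and 512, 493 and 429 CPM in TGFβ + RA. The 7 NK cell markers summed to 116 to 190 CPM in IL-2 + IL-15 and 24.8 to 40.2 CPM in TGFβ + RA (exact permutation p = 0.1). Most of this is Eomes, a T cell gene as well, at 166, 126 and 104 CPM in IL-2 + IL-15 and 20.96, 31.8 and 34.5 CPM in TGFβ + RA, and 3 of the 6 tested NK markers did not pass. The 16 myeloid and dendritic markers summed to 134 to 204 and 73.3 to 91.2 CPM (exact permutation p = 0.1), nearly all of it in the controls from the integrin genes Itgam and Itgax, which activated T cells can express. Of the 4 tested myeloid members these 2 fell, Fcer1a rose and Zbtb46 did not pass. The 11 erythroid and stromal markers summed to 95.8 to 109 and 68.4 to 77.4 CPM, mostly from Pecam1 at 91.3, 103 and 105 CPM in IL-2 + IL-15 and 53.1, 60.7 and 62.9 CPM in TGFβ + RA, whereas 3 of their 5 tested members rose, Col1a2, Epcam and Krt18, by 3.64, 3.37 and 0.72 on the log2 scale. TGFβ + RA replicate 3 stood apart by myeloid transcripts: Lyz2 had 323 counts there, S100a9 had 177 and S100a8 had 97, and the other 5 libraries held 0 to 5. Without that library 8049 genes were called, 3896 of them higher and 4153 lower. Counts from ribosomal protein genes made up 4.97 ± 0.35% (SD, n = 3) of a TGFβ + RA library and 8.85 ± 0.29% of an IL-2 + IL-15 library, and mitochondrial transcripts 1.37 ± 0.092% and 1.95 ± 0.14% (exact permutation p = 0.1 for each). In such bulk samples, fewer cells of a type and less RNA per cell cannot be told apart.

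Genes of tissue residency were mostly higher in TGFβ + RA. Of 35 tested members of a residency list, 26 rose, 7 fell and 2 did not pass the test, with a median log2 fold change of 1.52 against 0.0016 for all genes. Itgae (ENSMUSG00000005947, chromosome 11, 73090583 to 73147446 on GRCm38) encodes CD103, which binds E-cadherin on epithelial cells. Its level was 72.3, 109.5 and 117 CPM in IL-2 + IL-15 and 3106, 3297 and 3072 CPM in TGFβ + RA. Every TGFβ + RA library was far above every control, and the fold was 31.7 (log2 fold change 4.99, SE 0.26, adjusted p = 2.07e-09). With TGFβ alone Itgae stood at 2021, 2062 and 2001 CPM, and the level with both agents was higher than that by a log2 fold change of 0.64 (adjusted p = 0.0302). P2rx7 (ENSMUSG00000029468, chromosome 5, 122643911 to 122691432), the receptor for extracellular ATP, was at 2.03, 1.63 and 2.33 CPM in IL-2 + IL-15 and 258, 322 and 318 CPM in TGFβ + RA (log2 fold change 7.21, SE 0.17, adjusted p = 2.5e-12). It was higher still with RA alone, at 633, 659 and 542 CPM, and was at 1.19, 1.65 and 2.44 CPM with TGFβ alone. Itga1, the CD49a chain of a collagen-binding integrin, rose from 18.8, 12.04 and 12.1 to 59.3, 74.1 and 65.5 CPM (log2 fold change 2.22, SE 0.26, adjusted p = 5.07e-06). Its level was 95.5, 82.35 and 42.3 CPM with RA alone and 14.5, 10.4 and 11.45 CPM with TGFβ alone. In all these genes the 3 libraries of one group lay clear of the 3 of the other.

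Cd69 (ENSMUSG00000030156, chromosome 6, 129267325 to 129275436) rose by less but stood apart from every other culture. It was at 28.8, 28.7 and 24.9 CPM in IL-2 + IL-15 and 50.4, 53.6 and 52.9 CPM in TGFβ + RA, 1.91-fold higher (log2 fold change 0.93, SE 0.081, adjusted p = 3.07e-07). RA alone gave 27.5, 27.98 and 24.6 CPM and TGFβ alone 25.4, 21.8 and 20.8 CPM, so neither group mean was above that of the controls, and TGFβ + RA exceeded the nearest other group by a log2 fold change of 0.93 (adjusted p = 1.56e-06 for the largest of the 3 p-values). The chemokine receptor gene Cxcr6 rose from 313, 315 and 266 to 516, 460.5 and 451 CPM (log2 fold change 0.67, adjusted p = 0.000163). Of the transcription factor genes tied to residency, Runx3 rose from 361, 327 and 389.8 to 491, 483 and 478 CPM (log2 fold change 0.43) and Prdm1, which encodes Blimp-1, from 26.1, 27.01 and 22.5 to 35.8, 33.7 and 34.6 CPM (log2 fold change 0.46). Zfp683, which encodes their partner Hobit, moved the other way and fell from 3.76, 4.31 and 5.71 to 1.16, 1.35 and 0.993 CPM (log2 fold change -1.97, SE 0.18, adjusted p = 4.75e-07), while RA alone raised it to 26.03, 26.3 and 29.7 CPM. Bhlhe40, Nr4a1 and Nr4a2, further transcription factor genes of the list, also fell, with log2 fold changes of -0.98, -1.89 and -1.55. The transcription factor gene Ahr rose by 3.82 on the log2 scale. As group means, Cxcr6 was at 666 CPM with RA alone and 344.5 CPM with TGFβ alone. Runx3 was at 358 and 554 CPM and Prdm1 at 44.2 and 40.8 CPM in these groups, so Cxcr6, Runx3 and Prdm1 were not highest with both agents. Cd101, Cd244 (the gene for the receptor 2B4) and the prostaglandin D synthase gene Hpgds rose by log2 fold changes of 2.08, 3.50 and 4.06. Hpgds was at 5.33, 5.21 and 4.51 CPM in IL-2 + IL-15 and 84.2, 88.1 and 77.5 CPM in TGFβ + RA, with no overlap, and the ectonucleotidase gene Nt5e (CD73) at 49.8, 55.8 and 47.5 CPM in IL-2 + IL-15 and 296, 323 and 311 CPM in TGFβ + RA. Both of these last genes were also above each of the 3 other groups, by 1.18 and 0.48 on the log2 scale to the nearest (adjusted p = 1.66e-07 and 0.000128).

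**Figure D2:**
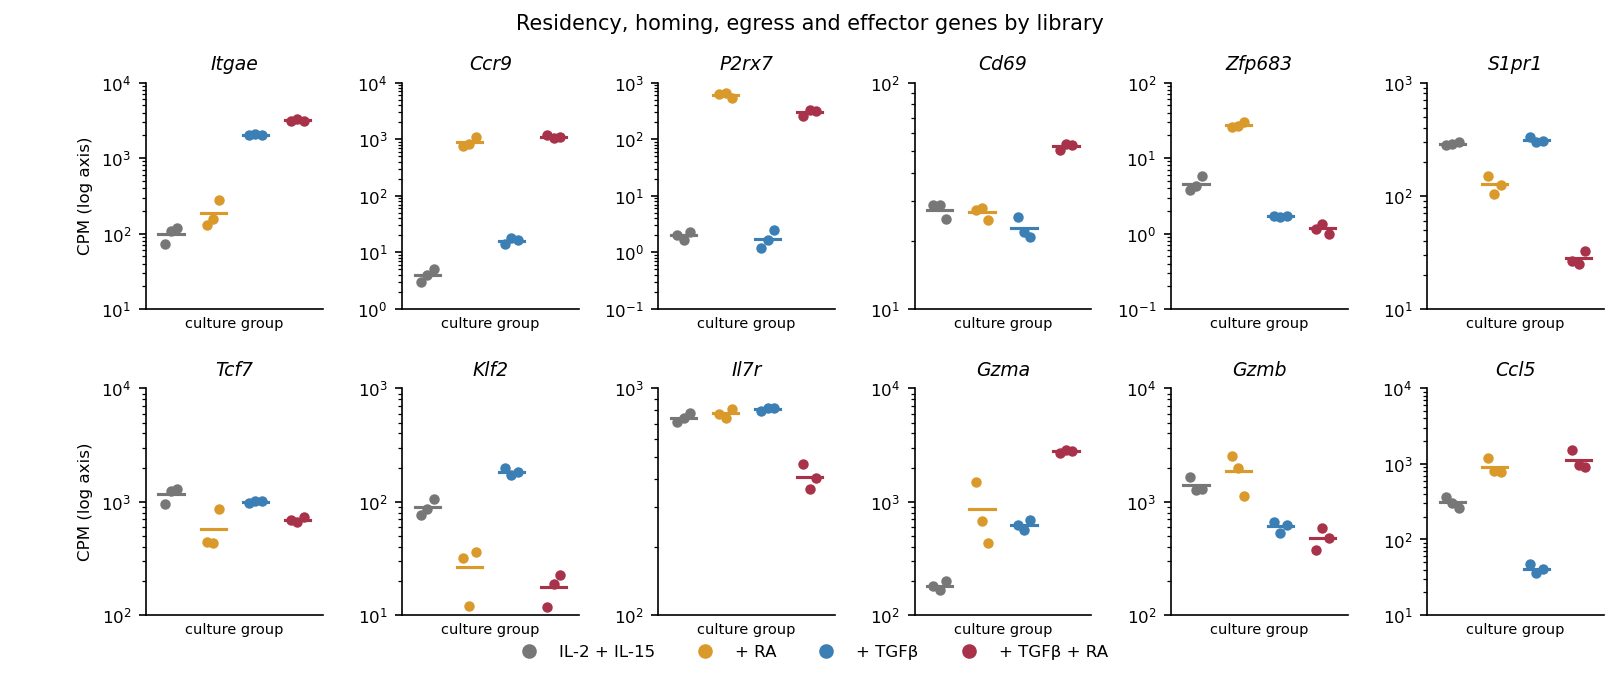
CPM of 12 genes on log axes, 1 point per library and a line at each group's mean, for IL-2 + IL-15 (grey), RA (orange), TGFβ (blue) and TGFβ + RA (red). Cd69 and Gzma are highest and S1pr1 and Il7r lowest with both agents, while Ccr9 and P2rx7 are high with RA and Itgae is high with TGFβ.

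Genes of lymph node entry, tissue exit and circulation were mostly lower. Among 23 tested members, 17 fell, 3 rose and 3 did not pass (median log2 fold change -0.87), and 6 were below each of the 3 other groups, as were 11.8% of all tested genes. S1pr1 (ENSMUSG00000045092, chromosome 3, 115710433 to 115715072) was at 279.7, 287 and 299 CPM in IL-2 + IL-15 and 26.4, 25.1 and 32.5 CPM in TGFβ + RA, 10.3-fold lower (log2 fold change -3.36, SE 0.12, adjusted p = 8.36e-11). It stood at 148, 104 and 125 CPM with RA alone and at 328, 298 and 303 CPM with TGFβ alone, and the level with both agents was below every group, with a log2 fold change of -2.17 against the nearest (adjusted p = 3.47e-08). Against TGFβ alone, the log2 fold change of S1pr1 with both agents was -3.47 (adjusted p = 1.64e-10). Klf2 fell from 76.8, 85.3 and 105 to 11.9, 18.7 and 22.7 CPM (log2 fold change -2.31, SE 0.30, adjusted p = 1.49e-05). For these genes the groups did not overlap.

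Further circulation genes differed widely in size of change. Ly6c2, a surface marker of circulating effector and memory cells, fell from 1716, 1575 and 1468 to 64.2, 99.8 and 108 CPM (log2 fold change -4.12) and was below each other group. Its reads can be shared with near-identical Ly6 genes, so its level is uncertain. Il7r, the receptor for the survival cytokine IL-7, was at 712, 739 and 778 CPM in IL-2 + IL-15 and 462, 359 and 402 CPM in TGFβ + RA (log2 fold change -0.87), against 775 ± 35.3 CPM with RA alone and 811 ± 16.03 CPM with TGFβ alone, and was below every group (adjusted p = 1.83e-06). Tcf7, which encodes TCF-1, a factor of naive and memory cells, fell from 948, 1232 and 1300 to 694, 662 and 726 CPM (log2 fold change -0.74, adjusted p = 0.00693). Usp33, a deubiquitinase gene, fell with a log2 fold change of -1.67; 24.4% of its exon bases lie opposite another gene, whose reads could not be told apart if the counting ignored strand. Such overlap was 15.3% for B4galnt2, 17.7% for Bid, 19.7% for Cdk4 and 22.8% for H2-Oa, which are named below. Ccr7, the lymph node homing chemokine receptor, was at 244, 317 and 307 CPM in IL-2 + IL-15 and 246, 235 and 238 CPM in TGFβ + RA and did not pass the test (log2 fold change -0.27, adjusted p = 0.0999). It did pass without IL-2 + IL-15 replicate 1 (log2 fold change -0.39, adjusted p = 0.0307), without RA replicate 3 (-0.27, adjusted p = 0.00911), with no filter on low counts (-0.27, adjusted p = 0.0299) and with only the 6 libraries in the fit (-0.27, adjusted p = 0.0167). The 3 members that rose were Id3 (1.55 on the log2 scale), Cx3cr1 (1.68, at 1.22, 1.73 and 2.72 CPM in TGFβ + RA) and Klf3 (0.72).

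The members of a gut-homing list, which also held the receptor gene Ccr2 for monocyte chemoattractant proteins, did not all move in the same direction. Ccr9 (ENSMUSG00000029530, chromosome 9, 123678439 to 123784330) encodes the receptor for the small intestinal chemokine CCL25. It was at 3.04, 3.95 and 5.005 CPM in IL-2 + IL-15 and 1177, 1054 and 1105 CPM in TGFβ + RA, 274-fold higher (log2 fold change 8.10, SE 0.19, adjusted p = 2.5e-12), and 19.00% of its exon bases lie opposite another gene. RA alone gave 743, 825 and 1075 CPM and TGFβ alone 13.9, 18.01 and 16.5 CPM, so the level with both agents was near that of RA (log2 fold change 0.34, adjusted p = 0.0363). The integrin α4β7, which binds MAdCAM-1 on gut vessels, is made from Itga4 and Itgb7. Itga4 rose from 139.8, 154 and 176 to 346, 243 and 273 CPM (log2 fold change 0.87, SE 0.13, adjusted p = 6.01e-05), well under the 979, 783 and 1058 CPM of RA alone, and the difference from RA alone was -1.71 on the log2 scale (adjusted p = 1.45e-07). Itgb7 rose from 924, 984 and 1018 to 1130, 1186 and 1157 CPM (log2 fold change 0.25). Of 8 tested members 4 rose and 3 fell. Those that fell included Ccr2 and Gpr15. Ccr2, the receptor for monocyte chemoattractant proteins, was at 331, 266 and 240.3 CPM in IL-2 + IL-15 and 2.699, 2.85 and 2.61 CPM in TGFβ + RA (log2 fold change -6.67, SE 0.26, adjusted p = 2.03e-10). Cxcr3, which senses interferon-induced chemokines, was at 216, 226 and 213 CPM in IL-2 + IL-15 and 228, 176 and 176 CPM in TGFβ + RA and did not pass (log2 fold change -0.18, adjusted p = 0.123), but it did pass without TGFβ + RA replicate 1 (log2 fold change -0.31, adjusted p = 0.00475).

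Genes of selectin ligands and skin homing were mostly lower, with 8 of 13 tested members down and 3 up. Fut7, the fucosyltransferase that finishes selectin ligands, was at 36.2, 33.1 and 30.9 CPM in IL-2 + IL-15 and 0.318, 0.314 and 0.368 CPM in TGFβ + RA (log2 fold change -6.62, SE 0.18, adjusted p = 7e-12). RA alone had 1.502, 1.05 and 0.619 CPM and TGFβ alone 45.9, 41.7 and 43.7 CPM, so both cultures with RA were low. Itgal, the CD11a chain of the integrin LFA-1, fell from 1695, 1641 and 1616 to 356, 375 and 420.3 CPM (log2 fold change -2.10, SE 0.072, adjusted p = 5.18e-11) and was below each other group. Gcnt1, which starts the core 2 glycans of selectin ligands, rose from 4.47, 3.78 and 4.24 to 22.3, 27.6 and 23.1 CPM (log2 fold change 2.55, SE 0.15, adjusted p = 6.18e-09). The other members that rose were Selplg and B4galt1, by 0.44 and 0.40 on the log2 scale.

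Response genes of both added agents were present in the TGFβ + RA libraries. Of 21 retinoid genes 13 passed the filter on low counts, of which 7 rose and 3 fell. Hic1, a transcriptional repressor gene, was at 3.87, 3.17 and 3.59 CPM in IL-2 + IL-15 and 124, 147 and 134 CPM in TGFβ + RA (log2 fold change 5.25, SE 0.19, adjusted p = 7.98e-11). Nrip1, a corepressor of nuclear receptors, was at 30.4, 36.2 and 38.2 CPM in IL-2 + IL-15 and 189, 166 and 166 CPM in TGFβ + RA (log2 fold change 2.31, SE 0.089, adjusted p = 1.59e-10) and exceeded every other group by 0.60 or more on the log2 scale. The members that fell were all receptors: Rarg from 30.4, 29.7 and 28.3 to 11.2, 10.6 and 9.97 CPM (log2 fold change -1.48, SE 0.063, adjusted p = 3.54e-10), and Rara and Rxra with log2 fold changes of -0.69 and -3.52. Cyp26b1, which breaks down RA, rose from 0.113, 0.163 and 0.0307 to 1.16, 0.941 and 0.92 CPM (log2 fold change 3.31, adjusted p = 0.000886), and RA alone gave 6.78, 5.87 and 15.9 CPM, so that TGFβ + RA differed from RA alone by -3.24 on the log2 scale (adjusted p = 6.24e-06). Dhrs3, which reduces retinaldehyde, rose from 0.225, 0.122 and 0.338 to 7.89, 10.3 and 10.5 CPM (log2 fold change 5.31, SE 0.28, adjusted p = 2.4e-09), with 12.9, 8.72 and 10.3 CPM in RA alone.

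TGFβ pathway genes rose more often than they fell. Of 24 tested members 12 rose, 7 fell and 5 did not pass (median log2 fold change 0.21). Ldlrad4 and Pmepa1 encode membrane proteins that hold SMAD2 and SMAD3 away from the receptor. Pmepa1 was at 13.2, 14.1 and 14.6 CPM in IL-2 + IL-15 and 91.6, 108 and 99.8 CPM in TGFβ + RA (log2 fold change 2.84, SE 0.072, adjusted p = 3.14e-12). Ldlrad4 was at 9.99, 9.52 and 9.64 CPM in IL-2 + IL-15 and 148, 144 and 147 CPM in TGFβ + RA (log2 fold change 3.91, SE 0.075, adjusted p = 7.33e-13), and 52.1% of its exon bases lie opposite another gene. Skil, the SMAD corepressor gene, rose from 79.5, 77.2 and 78.3 to 329, 307 and 297 CPM (log2 fold change 1.99, SE 0.063, adjusted p = 2.9e-11). In TGFβ alone these genes stood at 104 ± 4.94, 142 ± 1.47 and 299 ± 12.9 CPM, and in RA alone at 9.76 ± 0.591, 11.7 ± 1.72 and 85.96 ± 7.41 CPM, so the values with both agents lay beside those of TGFβ. The receptor genes Tgfbr1 and Tgfbr2 rose by 0.34 and 0.93 on the log2 scale, the inhibitory Smad7 rose by 0.82, and Smad3, Smad2 and Smad4 had log2 fold changes of -1.27, -0.26 and -0.13. Tgfb3, which encodes a TGFβ ligand, rose by 3.70, and Id2, a transcriptional regulator of effector cells, fell from 399.8, 330.1 and 306 to 32.7, 36.6 and 34.2 CPM (log2 fold change -3.32), below every other group.

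Cytotoxic genes were split, with 9 of 22 tested members higher and 9 lower. Gzma (ENSMUSG00000023132, chromosome 13, 113093825 to 113100981), which encodes the serine protease granzyme A, was at 181, 165 and 198 CPM in IL-2 + IL-15 and 2700, 2887 and 2817 CPM in TGFβ + RA, 15.5-fold higher (log2 fold change 3.95, SE 0.34, adjusted p = 2.76e-07). Each agent alone gave intermediate levels, 1487, 681 and 428 CPM with RA and 625, 562 and 694 CPM with TGFβ, and both together exceeded the nearest group by 1.70 on the log2 scale (adjusted p = 0.0011). Gzmb, which encodes granzyme B, the protease that triggers apoptosis in target cells, went the other way, with 1652, 1267 and 1289 CPM in IL-2 + IL-15 and 375, 581 and 475 CPM in TGFβ + RA (log2 fold change -1.55, SE 0.23, adjusted p = 6.07e-05). TGFβ alone gave 664, 531 and 618 CPM of Gzmb. Perforin forms the pores through which granzymes enter, and its gene Prf1 fell from 81.6, 63.9 and 47.6 to 39.7, 37.9 and 35.3 CPM (log2 fold change -0.77, adjusted p = 0.0205). Prf1 no longer passed when control replicate 1 was left out (log2 fold change -0.57, adjusted p = 0.0974) or when TGFβ + RA replicate 3 was (log2 fold change -0.73, adjusted p = 0.0624). Ctsc, the protease that activates granzymes, Ctsw, a lymphocyte cathepsin gene, and Srgn, which encodes the proteoglycan that packs granules, rose by 0.84, 0.93 and 0.91 on the log2 scale, each above every other group.

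Cytokine genes were split as well, 6 of 16 tested members higher and 6 lower, and the list's median log2 fold change of -0.047 became 0.41 without IL-2 + IL-15 replicate 1. Ifng, the gene of interferon γ, was at 29.2, 2.64 and 3.16 CPM in IL-2 + IL-15 and 1.16, 0.22 and 0.294 CPM in TGFβ + RA (log2 fold change -4.56, SE 0.95, adjusted p = 0.000932). Another gene on the same strand shares 25.9% of the Ifng exon bases. Control replicate 1 was the highest library, and without it the log2 fold change was -2.57, against -5.49 without TGFβ + RA replicate 1. Ccl5, which encodes a chemokine of memory CD8 T cells, rose from 365, 304 and 263 to 1547, 962 and 920.0 CPM (log2 fold change 1.88, SE 0.21, adjusted p = 3.31e-06), where RA alone gave 919.7 ± 226 CPM and TGFβ alone 40.98 ± 5.52 CPM. Ltb, the lymphotoxin β gene, rose from 613, 601 and 589 to 934, 883 and 898 CPM (log2 fold change 0.59). Cxcl10, an interferon-induced chemokine gene, rose from 0, 0.122 and 0.0614 to 4.08, 3.11 and 3.09 CPM (log2 fold change 5.72, 6.46 without IL-2 + IL-15 replicate 2), from 5 counts in the controls to 260. Il24 had 166 counts in the controls and 0 in TGFβ + RA, so it was at least 51.5-fold lower, with a floor of 3 counts over the group. Il10 was at 0.526, 0.488 and 0.522 CPM in IL-2 + IL-15 and 0.318, 0.659 and 0.736 CPM in TGFβ + RA and did not pass (log2 fold change 0.22, adjusted p = 0.616), although TGFβ alone gave 22.4, 24.4 and 27.7 CPM.

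Among cytokine receptors 12 of 21 tested members fell and 5 rose. The chains of the IL-18 receptor fell together. Il18r1 was at 474, 388 and 349.6 CPM in IL-2 + IL-15 and 40.7, 40.2 and 35.1 CPM in TGFβ + RA (log2 fold change -3.38, SE 0.16, adjusted p = 1.15e-09), and Il18rap fell from 148, 143 and 126 to 20.8, 23.5 and 20.8 CPM (log2 fold change -2.67, SE 0.16, adjusted p = 1.01e-08). Both were below each other group, with adjusted p = 0.000414 and 1.21e-05. Il17ra, a receptor chain for IL-17 cytokines, fell from 298, 316 and 337 to 161, 169.8 and 164 CPM (log2 fold change -0.94). The receptor chains for the 2 cytokines that all cultures received moved in different directions: Il2rb and Il2ra fell, with log2 fold changes of -1.01 and -0.25, while Il2rg rose by 0.40 and Il15ra by 0.37.

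Inhibitory receptor genes were mostly higher and costimulatory genes mostly lower. Of 17 inhibitory members 12 rose and 3 fell (median log2 fold change 1.17). Cd96, an adhesion receptor of the nectin-binding family, was at 150.2, 163 and 154 CPM in IL-2 + IL-15 and 533, 539 and 507 CPM in TGFβ + RA (log2 fold change 1.76, SE 0.048, adjusted p = 6.54e-12), and Cd274, which encodes PD-L1, at 48.5, 59.8 and 64.2 CPM in IL-2 + IL-15 and 141, 141 and 143 CPM in TGFβ + RA (log2 fold change 1.30, SE 0.085, adjusted p = 1.88e-08). The members that fell were Pdcd1 (PD-1), Havcr2 (TIM-3) and Btla, with log2 fold changes of -1.42, -3.97 and -1.94, and each of them was below every other group. Of 17 costimulatory members 11 fell and 3 rose. Cd28, the main costimulatory receptor, fell from 180.3, 183 and 199 to 45.9, 38.4 and 41.02 CPM (log2 fold change -2.17, SE 0.07, adjusted p = 3.12e-11). Tnfrsf8, which encodes CD30, was at 50.7, 39.3 and 35.2 CPM in IL-2 + IL-15 and 0.741, 0.659 and 0.809 CPM in TGFβ + RA (log2 fold change -5.82, SE 0.19, adjusted p = 3.03e-11), and Tnfsf14, which encodes the ligand LIGHT, fell with a log2 fold change of -4.22. The members that rose were Tnfrsf14, Cd226 and Tnfrsf18, by 1.07, 0.59 and 0.33.

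Transcription factors of effector and memory cells fell more often than they rose, 23 against 15 of 42 tested. The T-box genes fell: Tbx21, which encodes T-bet, from 129, 113 and 100.2 to 56.7, 58.8 and 54.2 CPM (log2 fold change -1.01, SE 0.12, adjusted p = 7.83e-06), and Eomes from 166, 126 and 104 to 20.96, 31.8 and 34.5 CPM (log2 fold change -2.17, SE 0.23, adjusted p = 2.11e-06). Irf4, which scales with antigen receptor signalling, fell from 200.2, 196 and 187 to 60.3, 58.6 and 56.8 CPM (log2 fold change -1.73, SE 0.043, adjusted p = 2.62e-12) and was below every group. Ikzf3, which encodes Aiolos, rose from 174, 176 and 181 to 462, 426 and 443 CPM (log2 fold change 1.33, SE 0.047, adjusted p = 7.04e-11) and was above every group. Foxp3 (ENSMUSG00000039521, chromosome X, 7573644 to 7595245), the factor that defines regulatory T cells, was at 1.31, 0.814 and 0.614 CPM in IL-2 + IL-15 and 236, 239.7 and 167 CPM in TGFβ + RA (log2 fold change 7.89, SE 0.20, adjusted p = 2.89e-12). TGFβ alone gave 52.8, 57.2 and 53.05 CPM and RA alone 0.364, 0.564 and 0.476 CPM, and against TGFβ alone the log2 fold change was 1.98 (adjusted p = 2.56e-08). Of the Foxp3 exon bases, 18.7% lie opposite another gene and 18.6% are shared with one on the same strand. In the same libraries Cd4 fell with a log2 fold change of -1.53 and Zbtb7b, which encodes the CD4-lineage factor ThPOK, fell from 72.9, 64.6 and 67.5 to 30.9, 25.4 and 27.1 CPM (log2 fold change -1.30), while Cd8a rose from 989.5, 1300 and 1283 to 3045, 3145 and 3020 CPM (log2 fold change 1.37).

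Killer lectin-like and NK receptor genes fell more often than they rose (8 and 2 of 15 tested). Klra1, a Ly49 receptor gene, fell from 9.13, 6.75 and 6.69 to 1.38, 1.82 and 1.54 CPM, Klrb1f from 9.31, 8.299 and 9.06 to 2.96, 2.196 and 2.58 CPM and Klrb1c, which encodes NK1.1, from 16.9, 9.15 and 7.37 to 0.688, 1.098 and 1.07 CPM (log2 fold changes -2.23, -1.80 and -3.49). Klra genes are near-identical copies whose reads can be split, so the value of Klra1 is uncertain. Among NK cell markers outside this family, Ncr1 had 0 to 3 counts in each of the 6 libraries, and Fcgr3 and Tyrobp were at 2.37, 1.55 and 1.66 CPM in IL-2 + IL-15 and 1.43, 2.82 and 2.58 CPM in TGFβ + RA and 1.84, 0.936 and 1.04 CPM in IL-2 + IL-15 and 1.06, 1.88 and 1.73 CPM in TGFβ + RA, and neither passed (log2 fold change 0.33 for each). The members that rose were Cd244 and Klrd1, by 3.50 and 0.50.

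Adhesion genes changed in composition, with 15 of 27 tested members lower and 9 higher. Besides Itgae and Itga1, the E-cadherin gene Cdh1 rose from 6.99, 4.52 and 4.79 to 295, 304 and 263 CPM (log2 fold change 5.73), a gene picked here after its values were seen. Its level with TGFβ alone was 303 ± 1.62 CPM. Cd44, the hyaluronan receptor, fell from 142, 134 and 142 to 29.9, 26.1 and 30.2 CPM (log2 fold change -2.28, SE 0.084, adjusted p = 1.01e-10), and Alcam, the ligand of CD6, fell from 35.01, 29.9 and 32.1 to 3.81, 3.39 and 3.16 CPM (log2 fold change -3.24, SE 0.095, adjusted p = 1.35e-11). Both were below each other group. Itgam, the CD11b chain, fell from 48.9, 38.3 and 41.5 to 3.07, 4.204 and 4.71 CPM (log2 fold change -3.40), but 68.7% of its exon bases are shared with another gene on the same strand. Itgax, the CD11c chain, fell from 154, 99.4 and 91.5 to 66.6, 64.97 and 53.8 CPM (log2 fold change -0.90), and both genes make up most of the myeloid marker sum given above, which is thus no separate measure of myeloid cells.

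**Figure D3:**
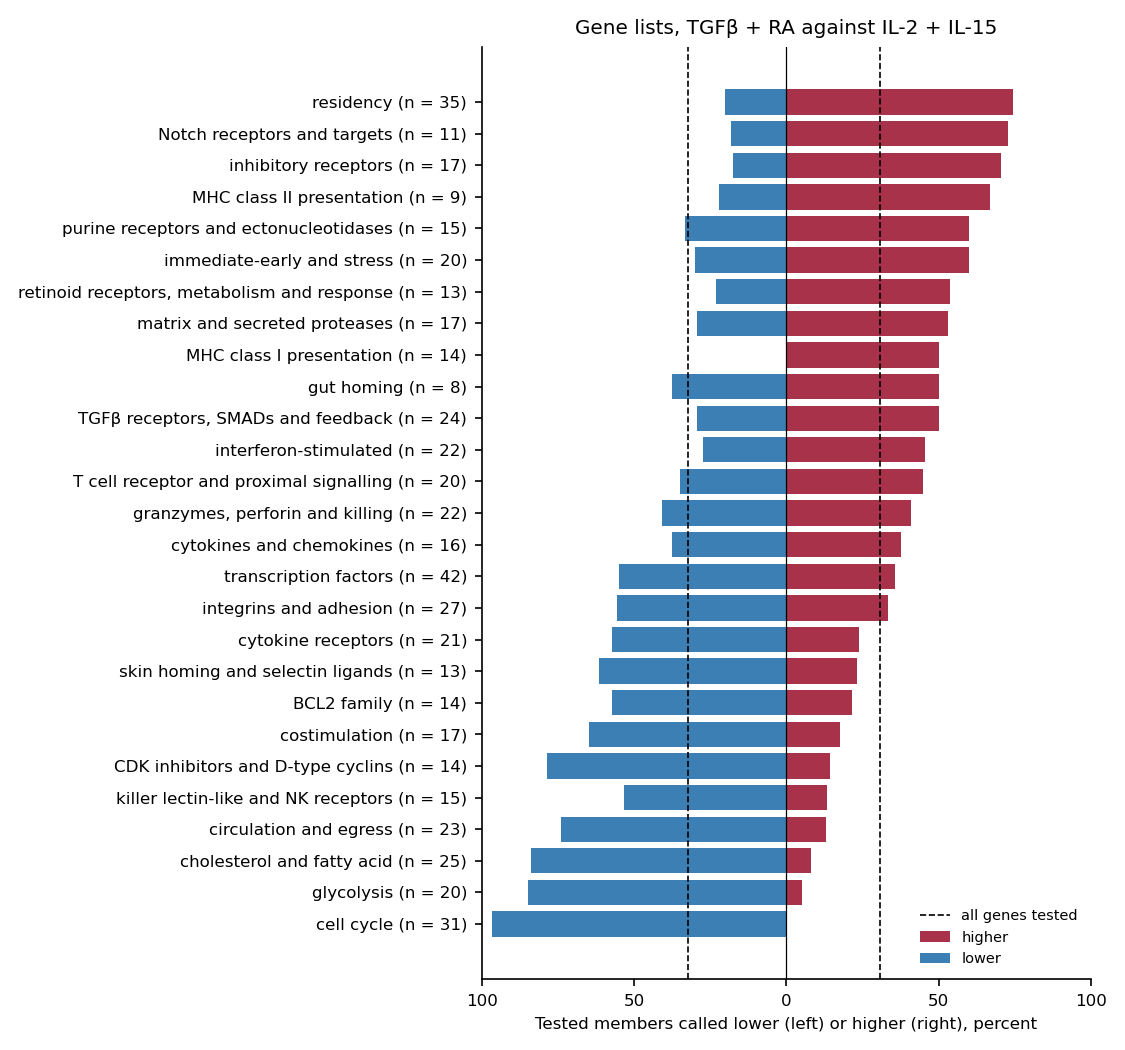
For each gene list other than the cell type markers (n tested members), bars to the right give the percentage of members called higher in TGFβ + RA and bars to the left the percentage called lower. Dashed lines mark the share of all 14009 tested genes, 30.8% higher and 32.4% lower; the cell cycle list has 30 of 31 members lower.

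Cell cycle genes were lower, with the largest share called in 1 direction of the lists in the bar chart, which leaves out the cell type markers. Of 31 tested members 30 fell, with a median log2 fold change of -2.61, and Cdk2 was the 1 member not called (66.97, 59.2 and 63.04 CPM in IL-2 + IL-15 and 63.4, 59.4 and 56.1 CPM in TGFβ + RA). Against the 11.8% of all tested genes that were below each of the 3 other groups, 30 of the 31 were. Mki67 (ENSMUSG00000031004, chromosome 7, 135689784 to 135716361), which encodes the proliferation marker Ki-67, was at 608, 567 and 614 CPM in IL-2 + IL-15 and 38.7, 55.6 and 39.9 CPM in TGFβ + RA, 13.3-fold lower (log2 fold change -3.73, SE 0.15, adjusted p = 1.97e-10). RA alone gave 379, 332 and 262 CPM and TGFβ alone 434, 410.0 and 392 CPM, so the level with both agents was far under either. Top2a, a topoisomerase that untangles replicated chromosomes, fell from 660.5, 624 and 635 to 97.2, 116 and 101 CPM (log2 fold change -2.61, SE 0.096, adjusted p = 1e-10), and Foxm1, the transcription factor of mitotic genes, from 102, 88.6 and 91.2 to 9.74, 10.2 and 8.17 CPM (log2 fold change -3.32, SE 0.13, adjusted p = 2.45e-10). Log2 fold changes of the members that fell ran from -4.37 for E2f8, a repressor of the E2F family, to -0.80 for Mcm2, a subunit of the replicative helicase. Ccna2, Bub1 and Cenpf, genes of mitosis, had values of -4.34, -3.98 and -3.99.

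Promoters of mitotic genes are known to carry CCAAT boxes and a cell cycle homology region, and their letters were looked up in RefSeq windows of 300 bases, from 250 before to 50 after each start, on GRCm38.p6. Of the 30 cell cycle genes that fell, 25 had a window. CCAAT, on either strand, was in 19 of these 25 (76%), against 41.1% of all 27025 genes with a window. TTTGAA, on either strand, was in 11 (44%) against 20.2%, and both in 1 window in 11 (44%) against 7.97%. Among glycolysis genes that fell, CCAAT was in 8 of 16 windows (50%) and TTTGAA in 1 (6.25%), and among cholesterol and fatty acid genes that fell, in 10 of 12 (83.3%) and 3 (25%). These are matches of letters, not sites shown to be bound. Only 9600 tested genes had a window, so the 27025 genes also include many that were not tested here. As 30 of the 31 tested cell cycle members fell, these shares describe the list and do not set the genes that fell apart from others in it. Windows of 4 of the 11 genes with both motifs are printed, with CCAAT or its reverse complement ATTGG and TTTGAA or its reverse complement TTCAAA in capitals, to show how both lie in 1 window. They were picked for holding both, which most of the 25 windows do not. They are Top2a at chr11:99024140-99024439 on the minus strand, Mki67 at chr7:135716330-135716629 on the minus strand, Cdk1 at chr10:69352863-69353162 on the minus strand and Plk1 at chr7:122159185-122159484 on the plus strand, each written 5′ to 3′ in the direction of the gene.
Top2a: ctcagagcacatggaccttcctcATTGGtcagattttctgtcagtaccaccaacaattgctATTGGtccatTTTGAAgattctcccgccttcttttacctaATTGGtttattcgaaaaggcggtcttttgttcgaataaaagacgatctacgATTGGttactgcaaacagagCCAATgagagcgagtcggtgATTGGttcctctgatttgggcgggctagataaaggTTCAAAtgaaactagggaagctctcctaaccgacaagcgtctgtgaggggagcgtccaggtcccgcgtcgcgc
Mki67: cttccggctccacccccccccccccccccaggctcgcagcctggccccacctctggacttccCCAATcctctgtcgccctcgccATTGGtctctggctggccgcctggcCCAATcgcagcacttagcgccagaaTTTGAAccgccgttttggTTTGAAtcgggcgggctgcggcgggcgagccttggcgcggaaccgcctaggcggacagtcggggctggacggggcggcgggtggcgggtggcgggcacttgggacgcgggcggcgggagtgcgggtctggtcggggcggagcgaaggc
Cdk1: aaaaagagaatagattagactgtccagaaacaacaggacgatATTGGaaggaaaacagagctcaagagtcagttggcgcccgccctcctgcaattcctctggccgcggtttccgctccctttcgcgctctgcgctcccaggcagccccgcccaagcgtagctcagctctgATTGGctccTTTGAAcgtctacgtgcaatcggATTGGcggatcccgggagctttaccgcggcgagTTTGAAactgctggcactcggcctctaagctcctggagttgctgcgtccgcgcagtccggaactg
Plk1: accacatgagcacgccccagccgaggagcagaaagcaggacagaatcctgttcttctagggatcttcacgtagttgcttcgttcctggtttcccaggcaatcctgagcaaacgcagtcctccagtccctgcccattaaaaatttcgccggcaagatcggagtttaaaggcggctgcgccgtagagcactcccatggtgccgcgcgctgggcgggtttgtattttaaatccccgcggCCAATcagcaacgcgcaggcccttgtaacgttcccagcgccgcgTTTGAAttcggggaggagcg
Cdk1, the kinase that starts mitosis, fell from 70.3, 57.4 and 56.5 to 5.82, 8.19 and 6.47 CPM (log2 fold change -3.15), and Plk1, a kinase of the mitotic spindle, from 54.2, 47.4 and 49.3 to 7.83, 9.29 and 7.39 CPM (log2 fold change -2.61). The Plk1 window holds 1 match of each motif, and the Top2a window 6 of the first and 2 of the second.

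Inhibitors of the cell cycle and D-type cyclins were mostly lower too, 11 of 14 tested. The kinase genes Cdk4 and Cdk6, which act with D-type cyclins, fell from 179.7, 192 and 182 to 118, 123 and 116 CPM and from 118, 120.3 and 131 to 67.1, 62.4 and 75.6 CPM (log2 fold changes -0.63 and -0.85). The members that rose were Btg1, an antiproliferative gene, from 364, 416 and 429.8 to 749, 704 and 732 CPM (log2 fold change 0.85, SE 0.063, adjusted p = 6.69e-08), and Cdkn1b, which encodes p27, by 0.40 on the log2 scale. Cdkn1a, which encodes p21, fell with a log2 fold change of -1.75. Among genes of the BCL2 family, which govern cell survival, 8 of 14 tested fell and 3 rose. The killer gene Bcl2l11, which encodes BIM, rose from 73.8, 68.7 and 83.2 to 172, 182 and 154 CPM (log2 fold change 1.17, SE 0.12, adjusted p = 1.08e-06), while Bbc3, which encodes PUMA, and Bid fell, with log2 fold changes of -0.97 and -0.63. The other members that rose were Mcl1 and Bcl2, both survival genes, by 0.34 and 0.21.

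Glycolysis genes were lower. Of 20 tested members 17 fell, only Bpgm rose (0.29 on the log2 scale), and 14 were below each of the 3 other groups, against 11.8% of all tested genes (median log2 fold change -0.87). Hk2, the inducible hexokinase that starts glycolysis, was at 48.6, 46.9 and 45.01 CPM in IL-2 + IL-15 and 10.6, 10.3 and 11.4 CPM in TGFβ + RA (log2 fold change -2.12, SE 0.07, adjusted p = 3.76e-11). RA alone left it at 47.7 ± 3.26 CPM, and TGFβ alone gave 20.9 ± 1.004 CPM. Tpi1, the triose phosphate isomerase, fell from 208, 198 and 198 to 67.6, 65.5 and 66.9 CPM (log2 fold change -1.59, SE 0.057, adjusted p = 7.55e-11), and Ldha, the lactate dehydrogenase chain, from 749, 735 and 756 to 363, 372 and 372 CPM (log2 fold change -1.02, SE 0.047, adjusted p = 6.7e-10). The members that did not pass were Hk1, the constitutive hexokinase, with 207, 219 and 210.4 CPM in IL-2 + IL-15 and 212, 207 and 210.0 CPM in TGFβ + RA, and Pdk1, with 181, 253 and 269 CPM in IL-2 + IL-15 and 190.5, 213 and 214 CPM in TGFβ + RA.

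Cholesterol and fatty acid genes were mostly lower, 21 of 25 tested members lower and 2 higher (median log2 fold change -1.13), with 16 below each other group, against 11.8% of all tested genes. Scd2, a fatty acid desaturase gene, fell from 1284, 1311 and 1352 to 420.3, 422 and 426 CPM (log2 fold change -1.64, SE 0.06, adjusted p = 9.28e-11), and Sqle, the squalene epoxidase, from 95.1, 86.1 and 90.2 to 26.8, 25.1 and 24.5 CPM (log2 fold change -1.83, SE 0.067, adjusted p = 9.9e-11). With RA alone both genes were at 1264 ± 95.7 and 84.9 ± 7.49 CPM, and with TGFβ alone at 795 ± 35.5 and 49.1 ± 1.07 CPM. The members that rose were the cholesterol exporters Abca1 and Abcg1, by 1.96 and 0.49 on the log2 scale.

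**Figure D4:**
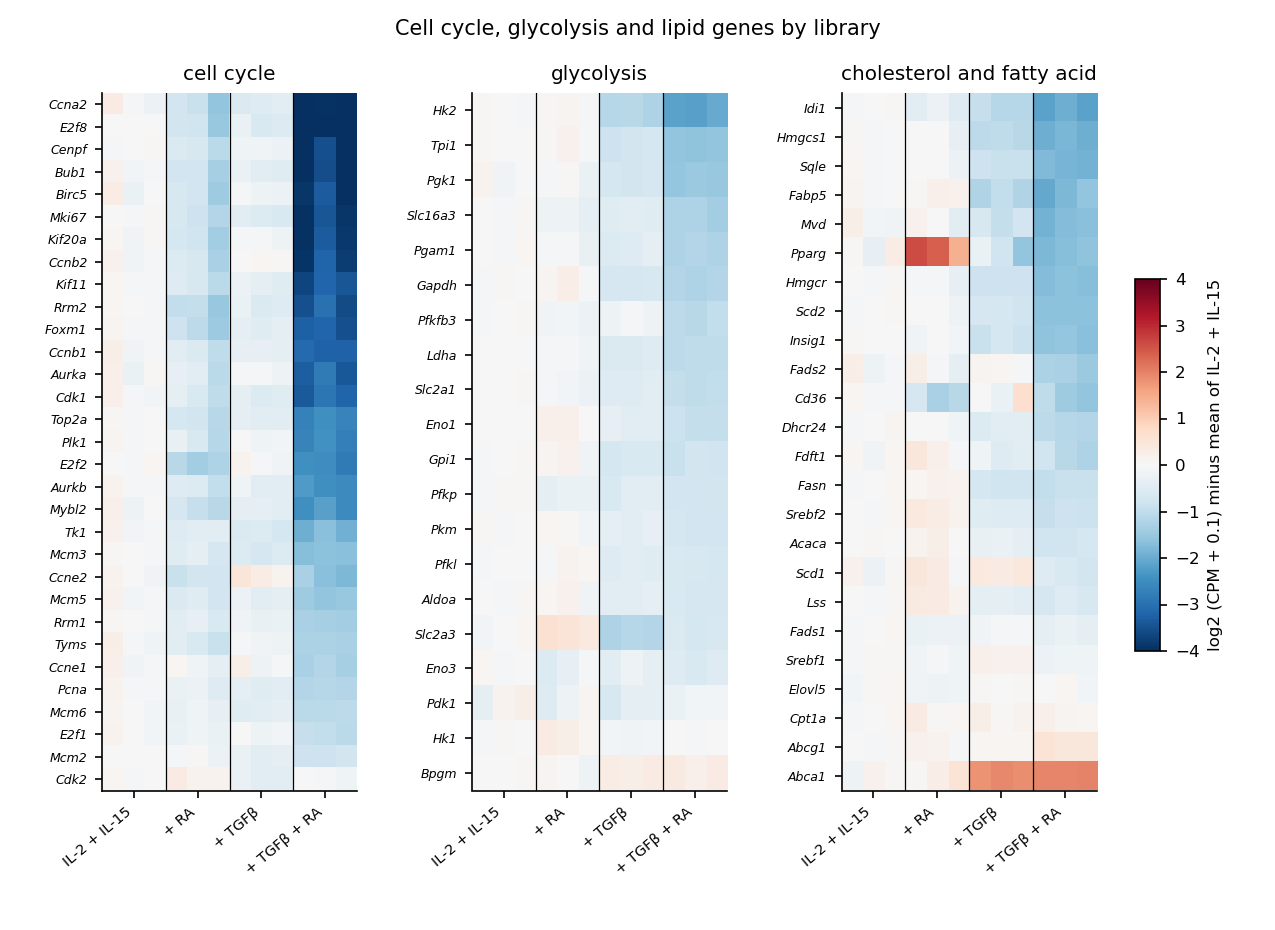
Heat maps of log2 (CPM + 0.1) minus the mean of the IL-2 + IL-15 libraries, with genes in rows and the 12 libraries in columns by group. Blue is lower and red higher; in the cell cycle map every row but Cdk2 is lower in TGFβ + RA, and in the lipid map, drawn without 1 member, Abca1 and Abcg1 are higher.

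Proteases of the matrix and of granules included genes with very large rises and several that fell (9 higher and 5 lower of 17). Mcpt1 and Mcpt2 encode proteases known from mast cells of the mucosa. Mcpt1 was at 0.0751, 0.203 and 0.123 CPM in IL-2 + IL-15 and 57.6, 69.2 and 146 CPM in TGFβ + RA (log2 fold change 9.38, SE 0.73, adjusted p = 1.01e-07), and Mcpt2 at 0.113, 0.244 and 0.0921 CPM in IL-2 + IL-15 and 48.1, 39.1 and 89.2 CPM in TGFβ + RA (log2 fold change 8.63, SE 0.63, adjusted p = 5.59e-08). Replicate 3 was the highest in both genes, and that library was also the one with myeloid transcripts; their part in these values was not tested. TGFβ alone gave 27.6, 14.5 and 49.3 CPM of Mcpt1 and 18.8, 8.96 and 28.4 CPM of Mcpt2, again highest in replicate 3. The mast cell receptor gene Fcer1a was at 3.55, 2.76 and 9.12 CPM in TGFβ + RA, from 5 counts in the controls and 403 in TGFβ + RA (log2 fold change 6.33, 5.61 without TGFβ + RA replicate 3 and 10.01 without IL-2 + IL-15 replicate 3). As Mcpt1 and Mcpt2 are close relatives, reads could be split between them. Timp2, an inhibitor of metalloproteinases, rose from 0.789, 0.61 and 1.26 to 18.2, 16.2 and 15.8 CPM (log2 fold change 4.19, SE 0.18, adjusted p = 3.35e-10). Adamts6, a metalloproteinase gene, rose from 20.02, 20.8 and 20.1 to 72.6, 67.5 and 65.00 CPM (log2 fold change 1.75, SE 0.077, adjusted p = 4.46e-10), and Furin, which cuts the TGFβ precursor among others, from 93.1, 97.4 and 95.1 to 169.8, 177 and 180.2 CPM (log2 fold change 0.88, SE 0.061, adjusted p = 3.07e-08).

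Genes that sense or break down extracellular nucleotides rose more often than they fell, 9 against 5 of 15. Besides P2rx7 and Nt5e, given above, the ectoenzyme genes Cd38, Entpd1 (CD39) and Art2b rose by 1.90, 1.23 and 2.16 on the log2 scale. Adora2a, the adenosine receptor of T cells, fell from 66.5, 62.7 and 63.6 to 13.8, 12.7 and 12.5 CPM (log2 fold change -2.31, SE 0.072, adjusted p = 2.6e-11), and TGFβ alone gave 16.04 ± 0.749 CPM.

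In the Notch list 8 of 11 tested members rose and 2 fell. Dtx4, a ubiquitin ligase gene of the Deltex family, had the smallest adjusted p of all lists. It was at 15.8, 19.5 and 18.6 CPM in IL-2 + IL-15 and 303, 316 and 291 CPM in TGFβ + RA (log2 fold change 4.08, SE 0.07, adjusted p = 3.45e-13), against 132 ± 4.03 CPM with RA alone and 47.3 ± 1.39 CPM with TGFβ alone. Nrarp, a feedback inhibitor of Notch, rose from 6.99, 6.02 and 6.29 to 20.3, 20.3 and 19.7 CPM (log2 fold change 1.64), with 79.4% of its exon bases opposite another gene. Rbpj, the DNA-binding partner of Notch, and the receptor gene Notch1 were the members that fell, from 339, 312 and 332 to 190.4, 166 and 187 CPM and from 234, 265 and 287 to 178, 179 and 199 CPM (log2 fold changes -0.86 and -0.50).

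Genes of antigen presentation and interferon response rose more often than they fell. In the class I list 7 of 14 tested members rose, 7 did not pass, and the median log2 fold change was 0.13. Tapbp, Psmb10 and Tap2, of the peptide-loading complex, the proteasome and the peptide transporter, rose by 0.65, 0.69 and 0.46. Opposite-strand overlap was 24.9% for Tapbp and 18.5% for Tap2. Of 9 class II genes 6 rose. H2-DMa, which loads peptides, rose from 39.7, 49.9 and 48.5 to 109, 112 and 126 CPM (log2 fold change 1.33), and Ciita, the class II activator, from 0.3, 0.326 and 0.829 to 2.81, 2.85 and 3.35 CPM (log2 fold change 2.56, 3.25 without IL-2 + IL-15 replicate 3). The members that fell were H2-Oa, from 77.9, 80.1 and 77.1 to 37.8, 49.7 and 46.4 CPM (log2 fold change -0.81), and H2-Ob (-0.44). Of 22 interferon-stimulated genes 10 rose and 6 fell. Gbp2, a guanylate-binding protein gene, rose from 99.3, 142 and 151 to 362, 404 and 373 CPM (log2 fold change 1.54, SE 0.13, adjusted p = 3.07e-07), while Mx1 and Oas3, both antiviral effectors, fell from 94.8, 85.2 and 78.4 to 12.01, 23.97 and 22.2 CPM and from 339.7, 383 and 355 to 200.3, 246 and 217 CPM (log2 fold changes -2.12 and -0.70).

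Signalling genes were mixed. Among immediate-early and stress genes 12 of 20 tested rose and 6 fell. Jun, a subunit of the AP-1 factor, was at 26.3, 30.8 and 32.1 CPM in IL-2 + IL-15 and 202, 211 and 199.7 CPM in TGFβ + RA (log2 fold change 2.78, SE 0.074, adjusted p = 5.07e-12) and above each other group, by 1.12 on the log2 scale to the nearest. Myc, the growth regulator, fell from 237, 229 and 229.5 to 117, 116 and 112 CPM (log2 fold change -1.01, SE 0.047, adjusted p = 8.38e-10), a level near that of TGFβ alone (98.8, 105 and 108 CPM). Ddit4, an inhibitor of mTOR signalling, fell from 233, 222 and 231 to 83.4, 98.1 and 97.6 CPM (log2 fold change -1.29, SE 0.069, adjusted p = 2.55e-09). In the T cell receptor list 9 of 20 rose and 7 fell. The receptor chains Cd3g and Cd3e rose from 615, 639 and 624 to 1144, 1218 and 1123 CPM and from 392, 467 and 464 to 798, 787 and 709.9 CPM (log2 fold changes 0.89 and 0.80). Cd5, an inhibitor of receptor signalling, fell from 266, 273 and 252 to 103, 88.6 and 99.4 CPM (log2 fold change -1.45, SE 0.069, adjusted p = 9.51e-10), and Themis, a signalling adaptor, from 571, 594 and 578 to 334, 304 and 314 CPM (log2 fold change -0.87, SE 0.046, adjusted p = 2.5e-09).

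Other large rises were in immunoglobulin, apolipoprotein and glycosyltransferase genes. Igha, the constant region of IgA, was at 1.43, 1.47 and 1.38 CPM in IL-2 + IL-15 and 586, 528 and 423 CPM in TGFβ + RA (log2 fold change 8.49, SE 0.20, adjusted p = 2.5e-12), with 384, 397 and 359 CPM in TGFβ alone. Ighm, the constant region of IgM, rose from 301, 359 and 401 to 2335, 2049 and 1839 CPM (log2 fold change 2.55, SE 0.15, adjusted p = 7.04e-09). The 7 B cell markers summed to 314 to 417 CPM in IL-2 + IL-15 and 1864 to 2356 CPM in TGFβ + RA, mostly from Ighm. Of the others, Cd79a was at 0.476, 0.439 and 0.662 CPM and Cd79b at 21.3, 23.3 and 25.2 CPM in TGFβ + RA (log2 fold changes 1.74 and 0.67), while Ms4a1 and Pax5 had 0 to 1 counts in each TGFβ + RA library. Apol9b, an apolipoprotein L gene, was at 0.15, 0.0407 and 0.153 CPM in IL-2 + IL-15 and 43.2, 51.3 and 38.9 CPM in TGFβ + RA (log2 fold change 8.49). Its near copy Apol9a had 2 counts in the controls against 941 (ratio 506, 95% interval 139.6 to 4181, counting error only), and reads could be split between the pair. B4galnt2, a glycosyltransferase gene, was at 0.15, 0 and 0.123 CPM in IL-2 + IL-15 and 12.1, 17.4 and 15.4 CPM in TGFβ + RA (log2 fold change 7.23, SE 0.65, adjusted p = 4.48e-07). The γδ T cell receptor constant genes Tcrg-C2 and Tcrg-C4 rose from 122, 86.04 and 84.9 to 454, 505 and 455 CPM and from 47.5, 29.5 and 32.03 to 128, 144 and 129 CPM, and Tcrg-C1 by 1.07 on the log2 scale. The 7 γδ T cell markers summed to 165 to 226 and 623 to 713 CPM (exact permutation p = 0.1 for both sums). Reads of the Tcrg copies could be split as well. Of the 5 tested γδ markers, 3 rose, all Tcrg genes, and 2 fell. Trdc, the δ chain gene, fell with a log2 fold change of -1.27, and the lowest value of the list was -2.34. The part of B cells or γδ T cells in these values was not tested.

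The largest falls included genes that RA alone also left near 0. Endou, an endoribonuclease gene, went from 20.4, 10.9 and 16.3 to 0.106, 0.0314 and 0.0368 CPM (log2 fold change -8.14), with 0.137, 0.113 and 0.143 CPM in RA alone and 24.4, 21.3 and 21.6 CPM in TGFβ alone. Stac2, an adaptor gene, went from 32.4, 30.4 and 31.8 to 0.212, 0.22 and 0.11 CPM (log2 fold change -7.42, SE 0.16, adjusted p = 1.5e-12), with 0.637, 0.715 and 0.381 CPM in RA alone. Sema4a, a semaphorin that costimulates T cells, fell from 432, 404 and 381 to 4.13, 6.49 and 8.64 CPM (log2 fold change -5.94, SE 0.22, adjusted p = 8.93e-11) and stood at 34.4 ± 9.64 CPM with RA and 320.5 ± 10.4 CPM with TGFβ. Cd163l1, a scavenger receptor gene known from γδ T cells, fell from 12.8, 11.8 and 13.4 to 0, 0 and 0.147 CPM; its log2 fold change of -7.82 ranged from -11.3 without TGFβ + RA replicate 3 to -7.12 without replicate 2, since that group held 4 counts in all.

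Beyond the difference from the controls, 1291 genes (9.22%) were above and 1650 (11.8%) were below each of the 3 other groups. These are genes whose level with both agents exceeded or fell short of that with either agent alone. With a limit of 5 CPM or more for the average of all 12 libraries, farthest above was Dkk3 (ENSMUSG00000030772, chromosome 7, 112116017 to 112159057), which encodes a secreted protein of the Dickkopf family. It was at 0.601, 0.854 and 0.645 CPM in IL-2 + IL-15 and 128, 116 and 112 CPM in TGFβ + RA, with 6.14, 3.54 and 3.47 CPM for RA and 6.13, 8.02 and 8.17 CPM for TGFβ, and exceeded the nearest group by 3.99 on the log2 scale (adjusted p = 2.17e-09). Cited4, a transcriptional coactivator gene, was at 0.526, 0.407 and 0.338 CPM in IL-2 + IL-15 and 26.1, 36.5 and 31.2 CPM in TGFβ + RA and 3.08 above the nearest group. Arrdc4, an arrestin-like gene, was at 3.79, 3.99 and 4.698 CPM in IL-2 + IL-15 and 133, 109 and 123 CPM in TGFβ + RA and 2.44 above it. Vipr2, a receptor for vasoactive intestinal peptide, reached 85.95, 61.8 and 74.6 CPM from 0.939, 0.285 and 0.645 CPM, and Cttn, which encodes the actin regulator cortactin, reached 19.7, 20.5 and 19.2 CPM from 0.15, 0.326 and 0.399 CPM. With Foxp3 these make the 6 farthest above. In Dkk3, Cited4, Arrdc4, Vipr2 and Cttn the means of both single-agent groups lay between those of the controls and TGFβ + RA.

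By the same limit, farthest below were Wdr95, Aunip, Gucy2e, Plcd1, Hemgn and Batf3. Wdr95, a WD-repeat gene, was at 21.5, 16.7 and 12.2 CPM in IL-2 + IL-15 and 0.212, 0.126 and 0.184 CPM in TGFβ + RA with a log2 fold change of -4.76 against the nearest group (adjusted p = 4.9e-06). Aunip, a binding partner of the kinase Aurora A, went from 11.2, 9.97 and 8.38 to 0.37, 0.314 and 0.184 CPM, with 5.46, 6.43 and 5.33 CPM in RA and 8.16, 6.33 and 8.25 CPM in TGFβ. Plcd1, a phospholipase C gene, was at 21.9, 17.4 and 19.2 CPM in IL-2 + IL-15 and 0.423, 0.345 and 0.515 CPM in TGFβ + RA, where TGFβ alone left it at 21.8, 17.1 and 20.9 CPM and RA alone at 6.33, 6.36 and 5.995 CPM. Batf3, an AP-1 family transcription factor gene, fell from 84.2, 60.8 and 64.4 to 4.08, 2.604 and 3.79 CPM (log2 fold change -4.36, SE 0.18, adjusted p = 2.63e-10). Gucy2e, a guanylate cyclase gene, and Hemgn, a nuclear protein of blood cell precursors, fell from 42.3, 26.5 and 29.6 to 0.9, 0.314 and 0.478 CPM and from 21.1, 15.8 and 15.5 to 0.106, 0.314 and 0.184 CPM. Below that limit, B4galnt2 had a log2 fold change of 2.76 against its nearest group and Cd163l1 of -4.45. Il24, also below it, had -6.73, a value that rests on 0 counts in TGFβ + RA. Each lay farther than most genes named here in the same direction. In all 12 genes that met the limit the TGFβ + RA libraries did not overlap with any other library.

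**Figure D5:**
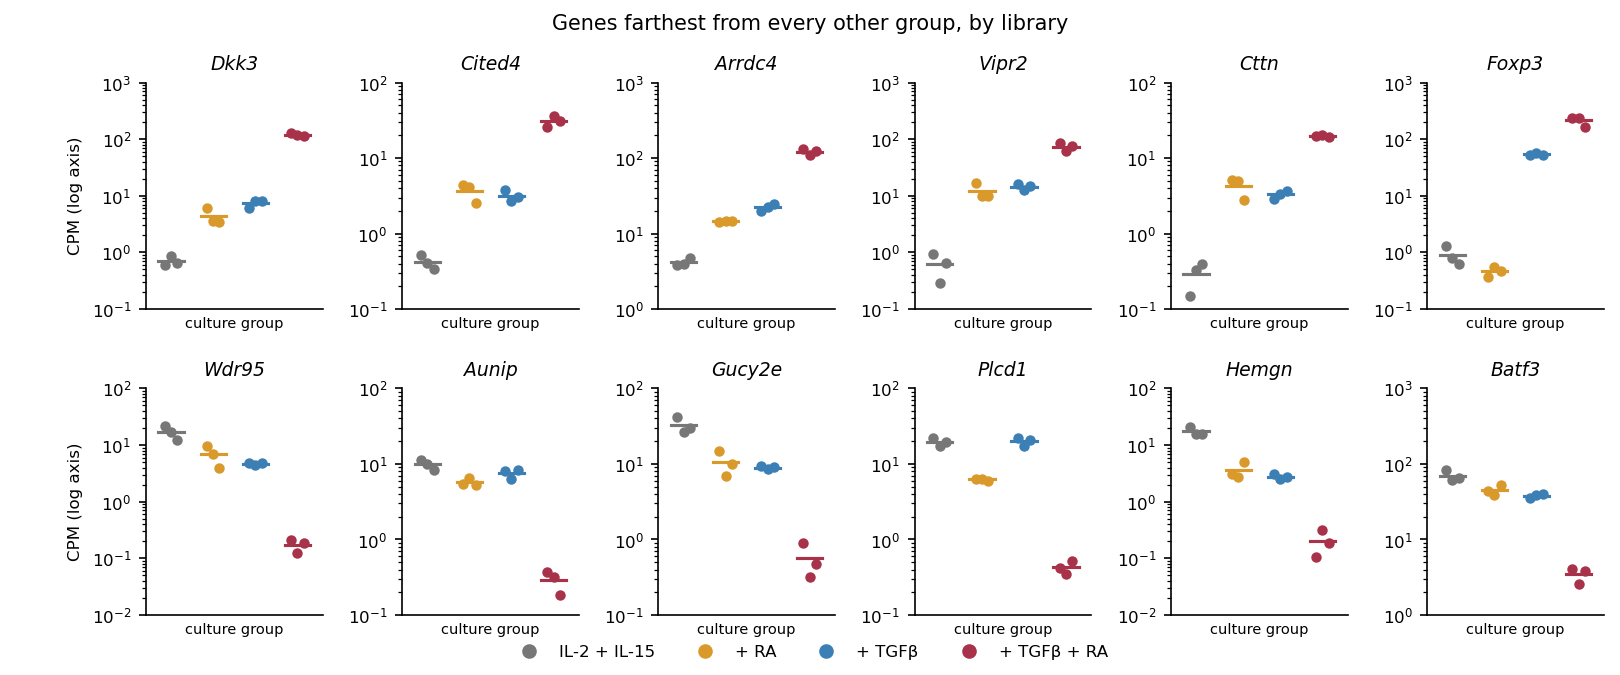
CPM on log axes of the 6 genes farthest above (top) and below (bottom) every other group, limited to an average of 5 CPM or more in all 12 libraries, 1 point per library and a line at each mean, for IL-2 + IL-15 (grey), RA (orange), TGFβ (blue) and TGFβ + RA (red). In each panel the 3 TGFβ + RA points lie outside the range of the other 9.

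In absolute terms, the genes with the largest gains in CPM were Itgae, Gzma, Cd8a, Ly6e and Ighm. Ly6e, a surface protein gene of lymphocytes, rose from 1373, 1275 and 1386 to 3335, 3685 and 3264 CPM (log2 fold change 1.35, SE 0.12, adjusted p = 3.9e-07). The largest losses were in the elongation factor genes Eef1a1 and Eef2, the mitochondrial gene mt-Co1, the ribosomal protein gene Rplp0 and Ahnak. Eef1a1 was at 16030, 15850 and 15240 CPM in IL-2 + IL-15 and 7941, 8443 and 8265 CPM in TGFβ + RA (log2 fold change -0.94), and Rplp0 fell from 3734, 3624 and 3373 to 1647, 1808 and 1783 CPM (log2 fold change -1.03, SE 0.07, adjusted p = 2.64e-08). Ahnak, which encodes a very large scaffold protein, fell from 2216, 2303 and 2277 to 589.8, 435 and 514 CPM (log2 fold change -2.14, SE 0.099, adjusted p = 6.79e-10) and was below every other group, with a log2 fold change of -1.27 against the nearest. Eef2 and mt-Co1 fell by less, with log2 fold changes of -0.60 and -0.61.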

How the data were processed

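RNA of cultured mouse CD8 T cells was isolated with the RNeasy Micro kit and made into libraries with the Illumina TruSeq stranded mRNA kit, per the labels' protocols. STAR and featureCounts on GRCm38 were used, per the submitters' processing notes. Their versions, the annotation release and the strand setting are unknown here. The deposited files hold raw counts per gene for 46078 genes, of 18300206 to 33477037 counts per library, of which the tested genes held at least 99.9%. Symbols come from the deposited files, positions and exon overlaps from GENCODE for 45229 genes (98.2%), and promoter windows from RefSeq.

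Genes were filtered with filterByExpr at a minimum count of 10, scaled by TMM, and fitted in 1 model of all 12 libraries (4 groups of 3, 8 residual degrees of freedom) with edgeR 4.0.16 in R 4.3.3, using the quasi-likelihood test with Benjamini-Hochberg adjustment over 14009 genes and a threshold of 0.05. SEs are the size of the log2 fold change divided by the square root of F, and can understate the error of genes with few counts. A gene counted as above or below every other group where the largest p of the 3 contrasts, all of 1 sign, passed after adjustment over all genes. Intervals of ratios are at 95% and cover counting error only. The procedure was also run on simulated counts. There few genes differed, and only in TGFβ + RA, unlike in these data, so that run cannot vouch for the scaling here.

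Named are 26 panel genes; the 10 highest and 10 lowest log2 fold changes among called genes of at least 5 mean CPM in the 6 libraries whose groups did not overlap; up to 3 members of each of 34 lists by smallest adjusted p; the 6 genes farthest above and 6 farthest below every other group, of at least 5 mean CPM in all 12 libraries; and the 5 largest gains and losses in CPM. Predicted genes were left out of the ranked sets, and 1 list entry was not matched. Members and lists were chosen with earlier results of these data known. Alternatives were DESeq2 1.42.0, its size factors, no filter, a test against a 1.5-fold change, a replicate block, a fit of the 6 libraries, and leaving out each library. Results of some genes are not reported here.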

Additional observations from a re-analysis of the deposited data

Results flagged for a closer look

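For the 12 genes farthest from every other group at an average of 5 CPM or more, the effect of RA with TGFβ present was compared with its effect without TGFβ, as the interaction term of the 4 groups in the edgeR fit, with p-values adjusted by the Benjamini-Hochberg method. Over all tested genes 2702 (19.3%) passed. In 10 of the 12 genes the RA effects with and without TGFβ differed, and Cited4 (0.17, adjusted p = 0.815) and Hemgn (-1.36, adjusted p = 0.0578) did not pass. Foxp3 had an interaction of 2.89 on the log2 scale (adjusted p = 0.000675), Dkk3 of 1.35 (adjusted p = 0.0195) and Arrdc4 of 0.65 (adjusted p = 0.009), so that the level with both agents was above the sum of the single log2 effects. Vipr2 had -1.92 (adjusted p = 0.00551) and Cttn -1.26 (adjusted p = 0.0403): both were highest with both agents, but below that sum. Among genes lowest with both agents, the values were -3.95 for Aunip, -3.90 for Plcd1, -3.47 for Wdr95, -2.85 for Batf3 and -2.46 for Gucy2e, with adjusted p of 2.39e-06, 5.43e-07, 0.000931, 4e-06 and 0.00281. The 12 genes were chosen from the same libraries by their distance from the other groups, a choice that itself favours an interaction. The 10 of 12 is therefore not to be read against the 19.3% of all tested genes.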

How the results depend on the processing

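The count of 8854 called genes was 8860 with DESeq2's size factors, 8945 with no filter (23785 genes tested), 8541 by DESeq2's Wald test and 8813 with only the 6 libraries in the fit (13603 genes tested). Tested against a 1.5-fold change, 2903 genes were called, 993 higher and 1910 lower, since small changes no longer count. Leaving out 1 library gave 7983 to 9241 called genes, 3841 to 4538 higher and 4142 to 4703 lower, 863 to 899 at least 2-fold higher and 1600 to 1703 lower, and 2341 to 3272 apart from every other group (946 to 1521 above, 1395 to 1751 below). Of 145 named genes, 126 kept their direction and side of the threshold under all 18 alternatives, 16 changed only under the test against 1.5-fold, and Cxcr3, Ccr7 and Prf1 also under others, as given with their values. List counts and medians were each compared once per alternative. Of these comparisons, 44 moved and 1180 did not on leaving out a library, and 10 moved and 92 did not with no filter. The labels give the groups shared replicate numbers. Deviations of same-numbered samples correlated at 0.117, 0.0745 and 0.0988, against -0.0855 to 0.00395 for other pairs, so each sample correlated best with its own number, a hint from the data only. The numbers were not taken as a pairing. A fit with the replicate block called 9059 genes. Genes with few counts limit precision. The folds of Cd163l1, Cxcl10, Ciita, Fcer1a and Col1a2, and that of Ifng, whose control replicate 1 stood far above the others, moved by over 1.5 times when 1 library was left out (Col1a2 to 5.22 without IL-2 + IL-15 replicate 2).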
